A study of Xenopus tropicalis with 11 samples.

Results

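Of the 40546 genomic regions that held a Foxh1 peak at any stage in embryos of the frog Xenopus tropicalis, 749 (1.85%) held one at stage 8, at stage 9 and in the early gastrula while holding no Smad2/3 peak. They were chosen by merging all peaks that overlapped by 1 base or more in 6 deposited peak lists, which gave 88697 regions, and by keeping the regions with all 3 Foxh1 lists and without the Smad2/3 list. They made up 79.3% of the 945 regions with Foxh1 at all 3 stages, and the other 196 had a Smad2/3 peak as well. Tle and Foxa peaks took part in the merging, but whether a region held one was not part of the choice.

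The lists come from chromatin immunoprecipitation with sequencing (ChIP-seq) on whole embryos of the Nigerian strain, with no genotype or treatment named in the labels. Foxh1 at stages 8 and 9 rests on 2 pooled replicates per list, Foxa at stage 10.25 and Tle at stage 8 on 1 library each, and the early gastrula lists of Foxh1 and Smad2/3 on reanalysed samples of an earlier series. Foxh1 and Smad2/3 were profiled at a slightly later gastrula stage than Foxa. At stage 8 and stage 9 the embryo is a blastula, and at stage 10.25 it has begun to gastrulate. With 1 list per protein and stage there is no spread between embryos, and the depth of sequencing is unknown. In a whole embryo, binding in few cells and weak binding in many cells cannot be told apart.

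Foxh1 is a maternally supplied forkhead transcription factor. It is best known as the DNA-binding partner through which Smad2/3, the effectors of Nodal signalling, reach mesendoderm genes. Tle proteins are Groucho-type co-repressors that do not bind DNA themselves and are brought in by transcription factors. Foxa proteins are forkhead factors of the endoderm and the organizer, known in mammals as pioneer factors that bind compacted chromatin. The sites described here are thus sites of Foxh1 at which the partner of the Nodal pathway was not called in the early gastrula.

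The Foxh1 peaks of these regions stood high in the blastula lists and in the middle of the gastrula list, which they mostly made up. Because these values chose the regions, they are a description and carry no test. The fold enrichment over local background, as the authors' peak caller gave it, had a median of 23.8 at stage 8 (quartiles 17.7 and 31.7, range 7.00 to 52.3). At stage 9 the median was 31.0 (quartiles 24.9 and 36.7, range 9.00 to 50.7). In the gastrula it was 10.54 (quartiles 8.85 and 13.7, range 7.70 to 35.5). Folds of different lists are not on a common scale, so each peak was also placed by the percentile of its score within its own list. The median percentile was highest at stage 9, at 94.96, followed by 83.8 at stage 8 and 51.1 in the gastrula. At stage 9, 566 of the 749 regions (75.6%) had a peak in the upper 10% of the list, while 286 (38.2%) did at stage 8 and 41 (5.47%) in the gastrula. Seen from the lists, the regions took up 755 of the 1290 gastrula Foxh1 peaks (58.5%). At stage 8 they took up 774 of 28611 peaks (2.71%), and at stage 9 they took up 759 of 29935 (2.54%). The median of a set that fills most of a list cannot lie near either end of that list. The upper 10% of the gastrula list also held only 129 peaks. The lower gastrula percentiles therefore do not show a lower standing than in the much longer blastula lists.

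**Figure D1:**
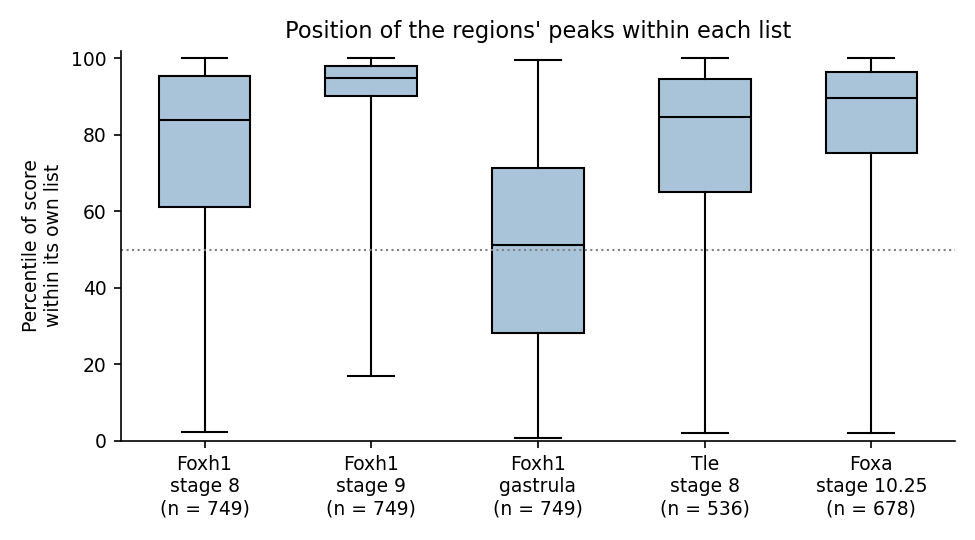
Percentile of the score within its own list (y axis, percent) for the strongest peak that each of the 749 regions held in each list (x axis). Boxes span the quartiles with the median as a line, whiskers span the whole range, and the dotted line marks the middle of a list. The regions held 58.5% of the gastrula Foxh1 peaks, so their median there cannot lie near either end of that list. The median percentile of Foxh1 was 83.8 at stage 8 and 94.96 at stage 9, and 51.1 in the gastrula, and those of Tle and Foxa, where present, were 84.7 and 89.6.

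The absence of Smad2/3 is an absence from a list of 480 peaks and does not show that the protein was absent. It went with the position of the peak in the gastrula Foxh1 list. In the upper 10% of that list 41 of 129 peaks (31.8%) lay in the regions described here, and 86 (66.7%) lay in regions with Smad2/3. In the lowest 10% the counts were 49 of 129 (38.0%) and 3 (2.33%). The median gastrula fold was 10.54 in the regions without Smad2/3 and 18.4 in the 196 three-stage regions with Smad2/3, whereas the median stage 9 folds were 31.0 and 32.3.

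None of the overlaps behind the rule was of only a few bases, but the number of regions depended on the overlap asked for. With stage 9 Foxh1 peaks as units and an overlap of 50% of both peaks, 350 units were kept. The smallest overlap of a gastrula Foxh1 peak with a stage 8 peak of the same region was 84 bases, and with a stage 9 peak it was 93 bases. Just outside, the gastrula Foxh1 peak nearest to a region with Foxh1 at stages 8 and 9 only lay 101 bases away. The nearest Smad2/3 peak to a region kept by the rule lay 113 bases away, and the smallest overlap between Smad2/3 and Foxh1 in a region left out for it was 188 bases.

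Regions were compact. Their median width was 589 bases, and 23 of the 749 held more than 1 stage 8 peak, 10 more than 1 stage 9 peak and 6 more than 1 gastrula peak. The strongest stage 8 peaks had a median width of 396 bases and those of stage 9 of 531 bases, while the medians of the whole lists were 307 and 292 bases. The gastrula peaks, at 247 bases, were about as wide as their list (253 bases).

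Most of the 749 regions carried both Tle and Foxa. A Tle peak of stage 8 was present at 536 (71.6%, Wilson 95% interval 68.2 to 74.7%), where 44.9% of all regions with Foxh1 of any stage had one. A Foxa peak of stage 10.25 was present at 678 (90.5%, 88.2 to 92.4%), where 27.7% of all regions with Foxh1 had one. Both were found at 494 regions (66.0%, 62.5 to 69.3%), against 12.0% of all regions with Foxh1. Foxa without Tle was found at 184 regions (24.6%), Tle without Foxa at 42 (5.61%), and neither at 29 (3.87%). The shares were lower under a stricter rule, with stage 9 Foxh1 peaks as units and centres within 100 bases. Of the 701 units then kept, 394 (56.2%) had Tle, 524 (74.8%) had Foxa and 310 had both. Under the same rule, units with Foxh1 at stages 8 and 9 only had Tle in 48.8% and Foxa in 20.7%. Intervals cover the counting error of regions and no variation between embryos.

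The Tle and Foxa peaks in question were also strong ones of their lists. The 558 Tle peaks inside the regions had a median score of 19.3, against 7.29 for the other 37361 Tle peaks, and a randomly drawn one was the higher in 0.763 of pairs (area under the curve). The 725 Foxa peaks had a median score of 39.2, against 10.7 for the other 40200, with an area of 0.806. The upper 10% of the Foxa list held 340 of these peaks, which is 8.31% of that part of the list, and the lowest 10% held 10 of them (0.244%). Such strength was not particular to these regions. The median Foxa percentile was 89.6 here, 97.2 in three-stage regions with Smad2/3 and 88.1 in regions with Foxh1 from stage 9 on. It was 65.8 in regions with Foxh1 at stages 8 and 9 only. For Tle these medians were 84.7, 85.6, 50.1 (23 regions) and 76.0.

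**Figure D2:**
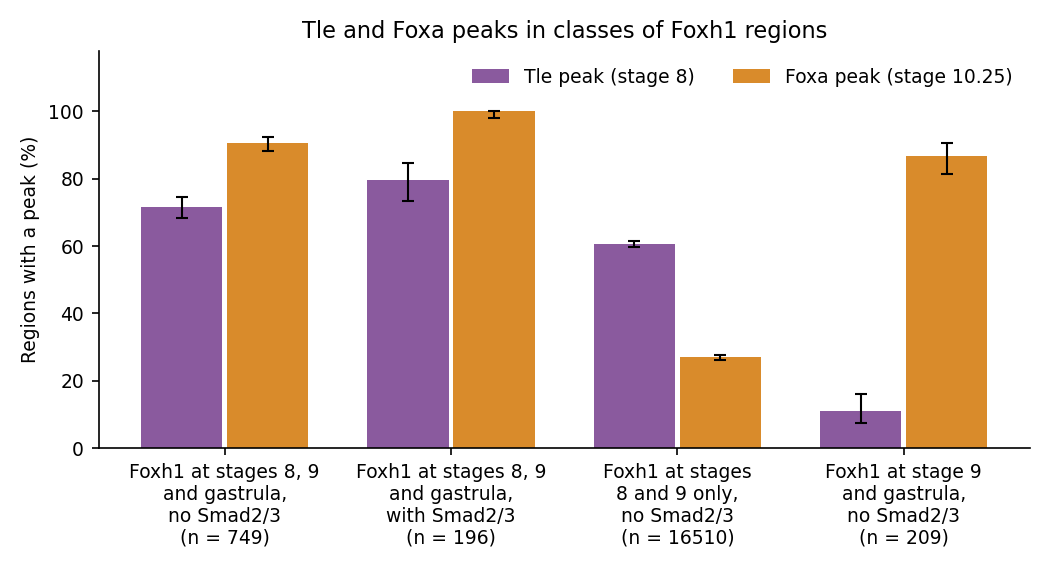
Share of regions with a Tle or a Foxa peak (y axis, percent) in 4 classes of regions set by their Foxh1 and Smad2/3 peaks (x axis), with Wilson 95% intervals as error bars. The three-stage regions without Smad2/3 had 71.6% Tle and 90.5% Foxa. Regions with Foxh1 at stages 8 and 9 only had 60.6% Tle and 27.0% Foxa, and regions with Foxh1 from stage 9 on had 11.0% Tle and 86.6% Foxa.

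Set beside the nearest classes of Foxh1 regions, the 749 regions had a high Foxa share, as regions with gastrula Foxh1 did, and a high Tle share, as regions with stage 8 Foxh1 did. Shares were compared over counts of regions with Fisher's exact test, two-sided, and adjusted over 7 tests by the Benjamini-Hochberg method. Regions are not replicates and neighbours are not independent, so these p-values describe the lists. Foxa was present at 678 of the 749 regions and at 4455 of 16510 regions (27.0%) with Foxh1 at stages 8 and 9 only. The odds ratio was 25.8 (95% interval 20.2 to 33.1; Fisher's exact adjusted p = 2.06e-280). Against the 209 regions with Foxh1 at stage 9 and in the gastrula but not at stage 8, of which 181 (86.6%) had Foxa, the odds ratio was 1.48 (0.926 to 2.36; Fisher's exact adjusted p = 0.122). That difference was not shown, and the interval allows both no difference and a ratio above 2.

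For Tle the order was the other way. A Tle peak was present at 536 of the 749 regions and at 23 of the 209 regions (11.0%) that had Foxh1 from stage 9 on. The odds ratio was 20.4 (12.8 to 32.3; Fisher's exact adjusted p = 5.20e-58). Against the regions with Foxh1 at stages 8 and 9 only, of which 10009 of 16510 (60.6%) had Tle, the odds ratio was 1.63 (1.39 to 1.92; Fisher's exact adjusted p = 2.29e-09). The strength of stage 8 Foxh1 differed between these 2 classes, with median percentiles of 83.8 and 62.1. When the stage 8 list was divided into 3 equal classes by score, a split added after the data were examined, the Tle shares were 27.8 and 34.0% in the lowest class. They were 43.7 and 51.6% in the middle class and 86.3 and 80.5% in the highest class. In the highest class the odds ratio was 1.53 (1.18 to 1.98; Fisher's exact adjusted p = 0.00134). That class does not compare regions of equal stage 8 strength. The upper 10% of the stage 8 list, inside it, held 286 of the 749 regions and 2363 of the 16510. Pooled over the 3 classes the odds ratio was 1.10 (0.923 to 1.32). The Foxa odds ratio of the same comparison pooled to 25.8 (20.2 to 33.0) over these stage 8 classes. It was 20.5 in the lowest, 14.2 in the middle and 35.0 in the highest class. Over score classes of the stage 9 list, where the 749 regions stood highest, it pooled to a lower 13.4 (10.4 to 17.2). In the highest stage 9 class Foxa was present at 662 of 727 and at 3187 of 7384 regions (91.1 and 43.2%). Stage 9 strength still differed within that class. The upper 10% of the stage 9 list, inside it, held 566 of the 749 regions and 2124 of the 16510. The median stage 9 percentiles of the 2 whole sets were 94.96 and 61.9. The stage 9 classes therefore do not compare regions of equal stage 9 strength.

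By overlap, three-stage regions with Smad2/3 had Foxa in every case. Foxa was missing at 71 of the 749 regions without Smad2/3 and at 0 of the 196 regions with it, which allows a share of up to 1.53% by the rule of 3 counts and has a Wilson upper limit of 1.92% (odds ratio 0.0241, 0.00149 to 0.392, with 0.5 added to each count; Fisher's exact adjusted p = 9.27e-08). Foxh1 in the gastrula was weaker in the regions without Smad2/3, so the shares were also compared within score classes of the gastrula list, made in the same way. Foxa was present at 180 of 225 regions without and 8 of 8 with Smad2/3 in the lowest class. The counts were 267 of 285 and 30 of 30 in the middle class, and 231 of 239 and 158 of 158 in the highest. No class passed alone (Fisher's exact adjusted p = 0.599, 0.590 and 0.0604), and the first 2 held few regions with Smad2/3. These p-values were adjusted over the tests that could be made within each class, and not across classes. Over the 3 gastrula classes together, 0 regions with Smad2/3 lacked Foxa where equal shares within classes give 6.44. The exact conditional test over these classes, added after the data were examined and adjusted over 3 such tests, gave p = 0.000695. These classes are broad, and gastrula strength still differed within them. The upper 10% of the gastrula list, inside the highest class, held 86 of the 196 regions with Smad2/3 and 41 of the 749 without. The test therefore does not compare regions of equal gastrula strength. Over the stage 8 and the stage 9 classes the same exact test gave p = 2.28e-07 for each. The stage 9 classes separate little here, because 727 of the 749 and 191 of the 196 regions fell in the highest. With centres within 100 bases in place of an overlap, Foxa was present at 524 of 701 without and 141 of 173 with Smad2/3 (74.8 and 81.5%). The odds ratio was then 0.672 (0.441 to 1.02), and the difference did not pass. Tle was present at 71.6% of the regions without and 79.6% of those with Smad2/3 (odds ratio 0.645, 0.440 to 0.945; Fisher's exact adjusted p = 0.0276). This small difference was lost under most of the other settings and pooled to 0.911 (0.598 to 1.39) over the gastrula score classes.

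Within the 749 regions, Tle followed the strength of Foxh1 at stage 8, the stage at which both were profiled. The regions were ranked by their Foxh1 score and cut into quartiles. Tle was present at 62 of 188 regions (33.0%, 26.7 to 39.98%) in the lowest quartile of stage 8, at 65.8% and 90.4% in the next 2, and at 182 of 187 (97.3%, 93.9 to 98.9%) in the highest. By stage 9 score the range was narrower, from 54.8 to 84.0%, and by gastrula score it ran from 61.2 to 85.0%. The Foxa share was lowest in the lowest quartile by gastrula score and by stage 9 score. By gastrula score it ran from 146 of 188 regions (77.7%, 71.2 to 83.0%) in the lowest quartile to 182 of 187 (97.3%, 93.9 to 98.9%) in the highest. By stage 9 score the Foxa shares were 80.9, 91.4, 95.2 and 94.7%. By stage 8 score they were 83.5, 92.0, 94.1 and 92.5%.

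The stage 8 and gastrula scores were also combined. Among regions in the upper 50% of the 749 at stage 8, Tle was present at 95.6% of those also in the upper 50% by gastrula score and at 91.0% of those in the lower 50%. Among regions in the lower 50% at stage 8 the Tle shares were 48.3 and 50.0%. Foxa was present at 97.8 and 86.2% in the first pair and at 93.1 and 84.3% in the second. The score of Tle peaks rose with the stage 8 Foxh1 score across the 536 regions with both (Spearman's rho 0.571), and less with the stage 9 score (0.162) and the gastrula score (0.122). The score of Foxa peaks rose weakly with the gastrula Foxh1 score (rho 0.299, 678 regions), and less with stage 9 (0.185) and stage 8 (0.118). Tle and Foxa scores showed almost no rank relation across the 494 regions with both (rho 0.0283). These are descriptions across regions, which share the same libraries.

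**Figure D3:**
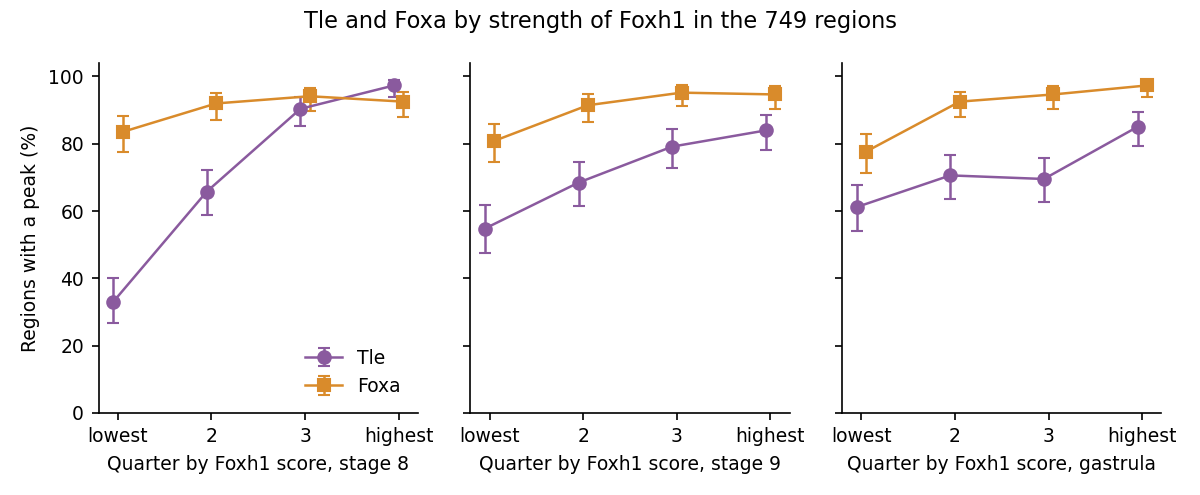
Share of the 749 regions with a Tle or a Foxa peak (y axis, percent) by quartile of their Foxh1 score at stage 8, stage 9 and in the gastrula (x axis, lowest to highest), with Wilson 95% intervals. Tle climbed with the stage 8 score, at 33.0% in the lowest and 97.3% in the highest quartile, and Foxa had its lowest share, 77.7%, in the lowest gastrula quartile.

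Foxa and Tle tended to occur together. Foxa was present at 494 of the 536 regions with Tle (92.2%) and at 184 of the 213 regions without Tle (86.4%), and the odds ratio was 1.85 (1.12 to 3.06; Fisher's exact adjusted p = 0.0259). Pooled over the stage 8 score classes it was 1.37 (0.782 to 2.40), and pooled over those of the gastrula list 1.54 (0.912 to 2.59). Over the stage 9 score classes it pooled to 1.87 (1.13 to 3.10). The relation thus held when pooled over stage 9 classes and was not shown when pooled over stage 8 or gastrula classes. The odds ratio in regions with Foxh1 at stages 8 and 9 only was 1.58 (1.47 to 1.70). Several of the strongest Tle sites lacked Foxa. Of the 10 regions with the highest Tle score 7 lacked Foxa, and of the highest 50 regions 14 did, a count made after the values were seen. In the highest quartile by Tle score the Foxa share was 87.3% (80.6 to 91.9%), and in the other 3 it was 91.0, 97.0 and 93.3%.

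The 71 regions without Foxa were low in the gastrula list. Their median percentiles of the Foxh1 score were 72.0 at stage 8 and 89.1 at stage 9 but 21.2 in the gastrula, whereas the 678 regions with Foxa had 85.2, 95.3 and 53.4. The nearest Foxa peak lay a median of 10658 bases away, within 1 kb of 9 of these regions and within 10 kb of 32. The 213 regions without Tle had a median percentile of 55.4 at stage 8 and 92.3 at stage 9, and the 536 regions with Tle 90.4 and 95.6. Of the regions without Tle 28 had a Tle peak within 1 kb.

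Foxh1 was called at almost the same base at the 3 stages. The summits of stage 8 and stage 9 lay a median of 8 bases apart (quartiles 4 and 19) and within 50 bases in 711 of the 749 regions (94.9%). The gastrula summit lay a median of 16 bases from that of stage 8 and 14 bases from that of stage 9, within 50 bases in 90.4 and 91.7% of the regions. In 30 regions (4.01%) the stage 8 and gastrula summits were over 200 bases apart. Regions with Foxh1 at stages 8 and 9 only had a median of 10 bases between those summits, so summits of other Foxh1 regions lay about as close.

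**Figure D4:**
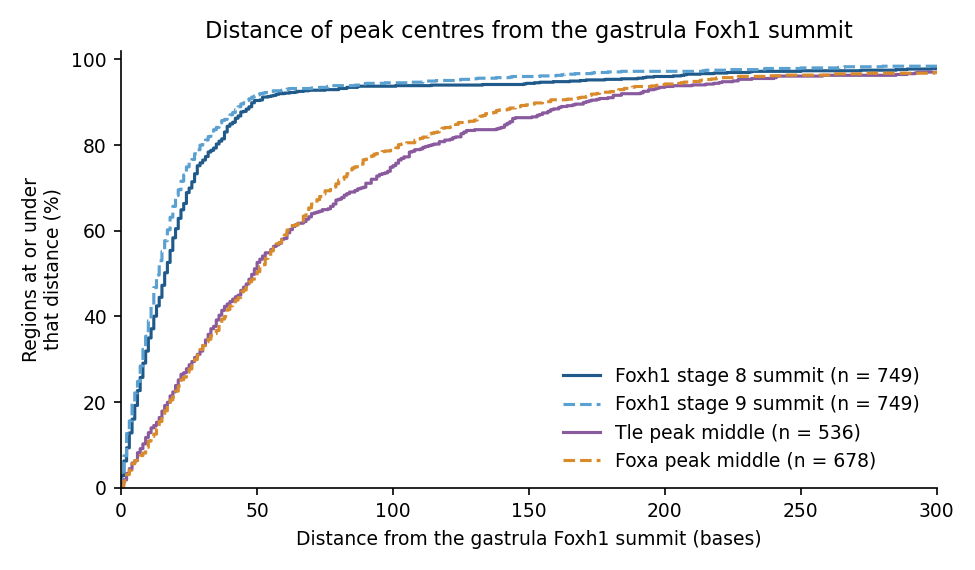
Cumulative share of the regions (y axis, percent) by the distance of a peak centre from the gastrula Foxh1 summit (x axis, bases, shown up to 300 bases). Foxh1 summits of stages 8 and 9 lay within 50 bases in 90.4 and 91.7% of the 749 regions, and the middles of Tle and Foxa peaks in 52.6 and 50.4% of the regions that had them.

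Tle and Foxa peaks were centred somewhat farther away. Their lists give no summit, so the middle of the peak was used, and the distances are not of the same kind as those between summits. The Tle middle lay a median of 49 bases (quartiles 21 and 100) from the gastrula Foxh1 summit, and the Foxa middle 50 bases (22 and 87.5). Where both middles lay over 50 bases from the stage 9 Foxh1 summit, they were on the same side of it in 126 of 148 regions (85.1%, 78.5 to 89.97%). The Foxh1 peaks leaned the same way. The middle of the stage 9 peak itself lay on the side of the Tle middle in 76.1% of the regions where Tle was over 50 bases away, and on the side of the Foxa middle in 81.4%. In regions with Foxh1 at stages 8 and 9 only, Tle and Foxa were on the same side in 617 of 781 regions (79.0%, 76.0 to 81.7%).

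The regions with the highest gastrula folds all had Tle and Foxa, with stage 8 folds between 17.9 and 44.6. The files do not pair positions with genes and the sources used here do not give the genome build of the coordinates, so regions are named by scaffold, with positions counted from 1. The highest gastrula fold was 35.5 on scaffold 27 from 430295 to 430832, where the fold was 29.0 at stage 8 and 50.5 at stage 9. It was followed by scaffold 3 from 93328088 to 93328673 with a gastrula fold of 35.3, against 36.9 at stage 8 and 26.6 at stage 9. The next regions lay on scaffold 8 from 4725745 to 4726806 (gastrula fold 31.0), scaffold 8 from 74698759 to 74699615 (30.7) and scaffold 6 from 18325210 to 18325802 (30.1). The Tle score was modest on scaffold 27, at 9.68, and at 4725745 on scaffold 8, at 4.35, and the Foxa scores of these 5 regions lay between 29.1 and 61.1.

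Ranking by the other lists brought up mostly different places. The highest stage 8 score, 2165, belonged to scaffold 4 from 3595736 to 3596164, which had a stage 8 fold of 52.3, a stage 9 fold of 19.4 and a gastrula fold of 12.3. A Smad2/3 peak lay 11000 bases from it. Scaffold 10 from 15499145 to 15499723 and scaffold 1 from 95969471 to 95970181 came next with stage 8 scores of 2126 and 2118, and all 3 had Tle and Foxa. The highest stage 9 score, 2012, was that of scaffold 3 from 3425441 to 3426173, with a very strong Tle peak (score 375) and no Foxa peak within 2606 bases. The region of the highest gastrula fold, on scaffold 27, was the next at stage 9. It was followed by scaffold 1340 from 6705 to 7309, with a stage 9 fold of 50.2 and a gastrula fold of 9.88. By the mean of the 3 percentiles the leading regions were scaffold 3 from 14215434 to 14216338 (98.9), the region on scaffold 8 at 74698759 (98.4) and scaffold 5 from 11306209 to 11307509 (98.3).

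The 3 regions with the highest Tle scores lacked Foxa and were in the lower 50% of the gastrula list, at percentiles of 24.7, 13.9 and 18.9. The region on scaffold 3 at 3425441, with its Tle score of 375, was at percentile 77.5. The highest Tle score, 606, was on scaffold 6 from 133028976 to 133030167. Next came 603 at 69463383 to 69464426 of scaffold 1 and 526 at 45883732 to 45884487 of scaffold 6. Their gastrula Foxh1 folds were 10.6, 8.30 and 9.99, and their stage 9 folds 21.9, 46.6 and 42.1. The nearest Foxa peak to the second was 53922 bases away. The strongest Foxa sites, on scaffold 8 from 48051466 to 48052118 (Foxa score 213), scaffold 7 from 99070256 to 99070964 (213) and scaffold 9 from 43983845 to 43984515 (199), all had Tle. Their gastrula Foxh1 folds were 11.1, 10.2 and 15.9. The lowest gastrula folds, each 7.70, were those of scaffold 4 from 86210670 to 86211140, scaffold 2 from 85133756 to 85134377 and scaffold 1 from 196724411 to 196724910. All 3 had Foxa, with scores of 49.8, 167 and 38.1.

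Some regions had Smad2/3 close by. A Smad2/3 peak lay within 1 kb of 12 regions (1.60%), within 5 kb of 46 (6.14%) and within 50 kb of 115 (15.4%). For regions with Foxh1 at stages 8 and 9 only the shares were 0.267, 1.11 and 4.69%, and for those with Foxh1 from stage 9 on they were 2.39 and 5.26%, with 22 of 209 within 50 kb. The Smad2/3 list is part of the rule, so these shares carry no test. The nearest cases were scaffold 2 from 150849039 to 150849463, at 113 bases, scaffold 5 from 118063809 to 118064410, at 212 bases, and scaffold 100 from 161270 to 161731, at 306 bases. Each had Tle and Foxa, with gastrula folds of 18.3, 9.73 and 10.7. Foxa was present at 110 of the 115 regions with Smad2/3 within 50 kb (95.7%, 90.2 to 98.1%) and at 544 of the 609 regions farther from one (89.3%, 86.6 to 91.5%). The Tle shares of the same 2 sets were 75.7 and 71.4%. Gastrula Foxh1 also differed between them, with median percentiles of 56.6 and 49.7, and the differences between the sets were not tested. The 25 regions on scaffolds without any Smad2/3 peak were left out of both sets.

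Of the 749 regions, 583 had no other of them within 50 kb, and 166 (22.2%) had one, in 72 groups. No share for randomly placed regions was computed, so these counts do not tell whether the regions were clustered. The group with the most regions had 7 of them in 116 kb on scaffold 9 from 44220610 to 44336651. All 7 had Foxa and 5 had Tle, with gastrula folds between 9.28 and 12.4, stage 8 folds between 15.7 and 36.5 and stage 9 folds between 17.4 and 41.3. The same stretch held 34 Foxa peaks, 13 Tle peaks and 1 Smad2/3 peak, which lay 2.31 kb from the nearest of the 7 regions. The next groups had 4 regions each. On scaffold 7, from 103029803 to 103084399, all 4 had Tle and Foxa, gastrula folds reached 22.1, and the nearest Smad2/3 peak was 111 kb away. The group on scaffold 6, from 132974055 to 133030167, held 2 regions with Tle, 1 of them the strongest Tle site of the 749, and 3 with Foxa, with a Smad2/3 peak 0.447 kb from the nearest region.

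**Figure D5:**
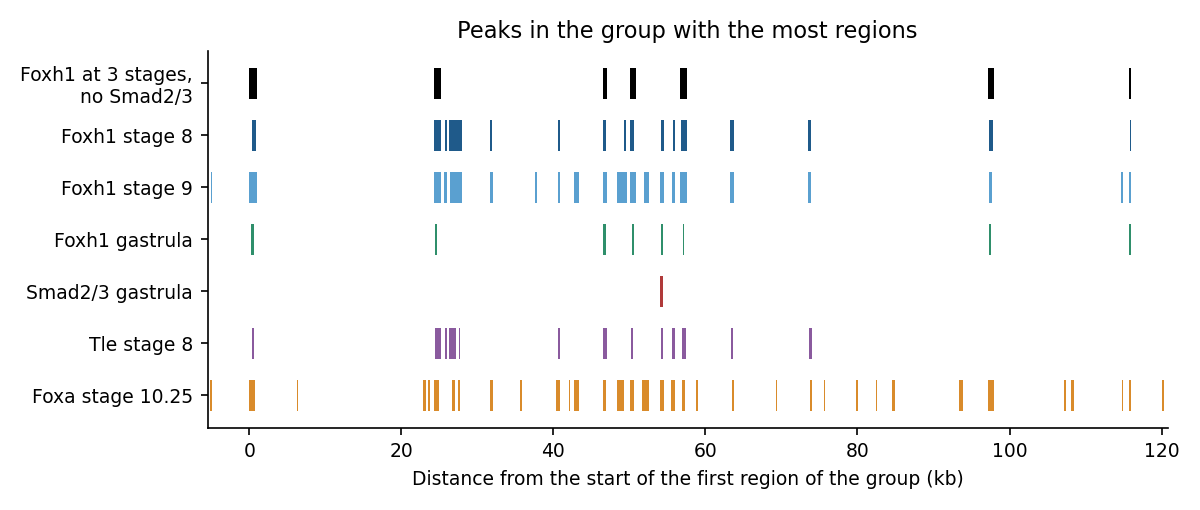
Peaks of the 6 lists along the group of 7 regions on scaffold 9 (x axis, kb from the start of the first region; 1 row per list, bars drawn to scale). The 7 regions in the top row have Foxh1 at all 3 stages, and the 1 Smad2/3 peak lies at a gastrula Foxh1 peak outside them, among 34 Foxa and 13 Tle peaks.

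The surroundings were rich in Foxa. Another Foxa peak lay within 10 kb of 81.6% of the 749 regions, with 3.03 such peaks on average, and another Tle peak within 10 kb of 62.9%, with 1.45 on average. For the 196 regions with Smad2/3 the Foxa and Tle shares were 94.9 and 71.4%. For regions with Foxh1 at stages 8 and 9 only they were 52.3 and 58.8%, and for those with Foxh1 from stage 9 on 75.6 and 38.3%. These differences were not tested.

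The regions were spread over 39 scaffolds, with 712 (95.1%) on the 10 longest. There the number of regions per Mb was 0.565, lowest on scaffold 2 at 0.457 and highest on scaffold 10 at 0.714. Scaffold 10 held 3.605% of the 749 regions and 2.05% of the regions with Foxh1 at stages 8 and 9 only. On scaffold 9 these shares were 8.68 and 5.77%, and on scaffold 2 they were 9.21 and 11.7%. The Foxa share per scaffold lay between 85.1% on scaffold 1 and 97.1% on scaffold 3, and the Tle share between 65.2% on scaffold 2 and 78.3% on scaffold 3.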

How the data were processed

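The submitters' processing notes name HOMER 4.7, SAMtools, MACS2 2.0.10 and Bowtie 1.0.0 without their roles. Genome build, controls and calling thresholds were not given in the sources used here. Of 11 samples 4 have a peak list used here, and 2 further lists belong to the series. A further 7 samples were not analysed here. The deposited Foxh1 and Smad2/3 lists give a fold ratio over local background, a −log10 p, a summit and a score, which in 100% of peaks is the −log10 p multiplied by 10 without its decimals. The deposited Tle and Foxa lists give only a score, whose nature is not stated. Per the labels, the Tle library came from another kit and has its own input sample.

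Regions were formed by merging peaks that overlapped by 1 base. The strongest peak of a list stood for it. The 749 regions and the comparisons were chosen with earlier results of these data known. Regions named are the leading ones by each list's fold or score, the lowest by gastrula fold, the nearest to Smad2/3 and the fullest groups. Counts were compared with Fisher's exact test over regions, adjusted over 7 tests by the Benjamini-Hochberg method, with Woolf intervals. For score classes, single or pooled, the adjustment covered only the tests that could be made there and did not run across classes. Counts were pooled over score classes by the Mantel-Haenszel method. For 1 comparison with an empty count, the exact conditional test over classes was used as well. The merging, the classes of regions and the odds ratios were tested on simulated lists. Regions in those lists lay apart and held at most 1 peak of each list, and the other calculations were not tested in this way. Depth is unknown, and intervals cover counting error only. Alternatives changed the unit, the overlap, the length of the lists, the distance to Smad2/3, the scaffolds and the score class. Versions were scipy 1.17.1, pandas 2.3.3, numpy 2.4.6, statsmodels 0.14.6, matplotlib 3.10.9 and Python 3.11.15.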

Additional observations from a re-analysis of the deposited data

How the results depend on the processing

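No paired analysis was possible because each protein and stage has 1 list and the blastula replicates were pooled by the authors; no replicate could be left out either. Values are odds ratios. The higher Foxa share of the 749 regions against regions with Foxh1 at stages 8 and 9 only passed the test in all 16 alternatives (10.9 to 53.9). Both ends of that range rest on few of the 749 regions. The highest value came from the lowest stage 9 class, with 2 of them (interval 2.58 to 1125). The lowest value came from the middle stage 9 class, with 20 of them (4.19 to 28.5). The higher Tle share against regions with Foxh1 from stage 9 on passed in 15 of 16 (10.4 to 46.2). The highest value came from the highest gastrula class, where 1 of 12 regions with Foxh1 from stage 9 on had Tle (interval 5.81 to 367). In the lowest class of the stage 9 list, with 2 of the 749 regions, the odds ratio was 4.75. The lower Tle share against three-stage regions with Smad2/3 passed in 4 of 20 alternatives. It did not pass with centres within 100 bases (0.754), 50% overlap (0.772), the upper 50% of the Tle and Foxa lists (0.740) or the 10 longest scaffolds (0.680). By class from lowest to highest it was 0.143, 0.564 and 0.665 for stage 9, 0.343, 0.679 and 0.867 for stage 8 (pooled 0.710), and 0.593, 0.841 and 0.983 for the gastrula (pooled 0.911). It turned to 1.22 in the upper 50% of every list. The higher Tle share against regions with Foxh1 at stages 8 and 9 only did not pass with 50% overlap (1.203), in the middle (2.36) or highest (1.14) stage 9 class, or pooled over stage 9 (1.17) or stage 8 (1.10). It turned in the lowest stage 9 class (0.951) and in the lowest (0.748) and middle (0.729) stage 8 classes. The lower Foxa share against three-stage regions with Smad2/3 did not pass with centres within 100 bases (0.672), in the middle stage 9 class (0.446), the lowest stage 8 class (0.212) or the gastrula classes (0.233, 0.237 and 0.0859). It passed in the other 13 of 19 alternatives, also pooled over the classes of each Foxh1 list, where the pooled value is 0 without an interval. Foxa against regions with Foxh1 from stage 9 on passed in the upper 50% of the Tle and Foxa lists (1.48) and of every list (2.23). It turned in the middle stage 9 class (0.535), in the lowest (0.970) and middle (0.848) gastrula classes and pooled over the gastrula list (0.922). Foxa with against without Tle did not pass in the upper 50% of every list (2.08), the lowest stage 8 class (3.43), pooled over stage 8 (1.37), in the gastrula classes (1.75, 1.17 and 1.42) or pooled over them (1.54). It turned in the middle stage 9 (0.133) and middle stage 8 (0.606) classes. The 749 regions numbered 350 with 50% overlap, 395 in the upper 50% of every list, and 2 and 20 in the lowest and middle stage 9 classes. The cause of these changes was not tested, and each score class holds fewer regions than the whole. Depth is unknown, so a missing peak does not show absence of binding.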
